A study of Homo sapiens with 24 samples.

Results

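The genes described here are 9 interferon-stimulated antiviral genes: IFIT1, IFIT2, IFIT3, RSAD2, MX1, OAS1, ISG15, IFIH1 and IRF1. They were chosen with earlier results of these data known, and were matched by gene symbol. Each was represented by the probe set with a single symbol that had the highest mean over all 24 arrays. All 9 were measured, each by 1 probe set, out of 18417 genes in all. Their RNA was followed in SUM149PT and SUM190PT, 2 human inflammatory breast cancer cell lines that the labels give as estrogen receptor negative and p53 mutant, on Affymetrix Human Gene ST arrays.

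Treatment lasted 48 h, with vehicle (ethanol and DMSO), 10 nM estradiol, CG-1521, or estradiol and CG-1521 together, called the combination below. CG-1521 is a histone deacetylase inhibitor. It was used at 7.5 µM in SUM149PT, in medium with 5% serum, and at 5 µM in SUM190PT, which was kept without serum from the day before treatment. Line, dose and medium therefore cannot be told apart. Each of the 8 groups had 3 arrays, which the design text describes as independent experiments, and each line is a single established culture. In RNA from whole cultures, fewer cells that express a gene and less RNA per cell cannot be told apart.

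Interferons are secreted proteins that a cell releases on sensing viral nucleic acid. They bind receptors on the same or neighbouring cells, and kinases of the JAK family then activate STAT proteins, which enter the nucleus and switch on interferon-stimulated genes. Type I and type III interferons act mainly through the interferon-stimulated response element in promoters, whereas gamma interferon acts through the gamma-activated site and through the transcription factor IRF1. The same response element can also be bound by IRF proteins without any interferon. Among the members, IFIH1 (also called MDA5) senses long double-stranded RNA and IRF1 is the transcription factor. The other members are effectors: the IFIT proteins bind viral RNA and restrain its translation, RSAD2 (viperin) is a radical SAM enzyme that makes a chain-terminating nucleotide, MX1 is a GTPase that blocks incoming virus, OAS1 makes oligoadenylates that activate the nuclease RNase L, and ISG15 is a ubiquitin-like protein.

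Promoter windows of RefSeq (GRCh38.p14, 250 bases before to 50 bases after each annotated start) were at hand for 8 members, in 12 windows. IFIT2 had no entry. The core of the interferon-stimulated response element was searched as GAAA, any 2 bases and GAAA again, and the gamma-activated site as TTCNNNGAA, each on both strands. The response element core lay upstream of a start in 6 members (IFIT1, IFIT3, RSAD2, MX1, ISG15 and IFIH1), and in 3.02% of all 35116 windows. TTCNNNGAA lay upstream in 3 members, IRF1 among them, and in 6.57% of all windows. Members were counted over any of their windows, whereas these shares are per window. Anywhere in a window, the response element core was in 8 of the 12 windows of members and in 3.57% of all windows. A match describes letters and is not a measured binding site. The stretches below show the matches in 4 members that stand for the different patterns of expression that follow. IFIT1 and RSAD2 rose with CG-1521 in SUM190PT and IFIT3 separated without passing, all with the core upstream. IRF1, which also rose, held only TTCNNNGAA. The capitals mark the motif on either strand, and all sequences run 5′ to 3′ on the strand of the gene.
IFIT1, chr10:89392495-89392541, plus strand: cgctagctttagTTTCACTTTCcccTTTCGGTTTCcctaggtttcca
IFIT3, chr10:89327829-89327896, plus strand: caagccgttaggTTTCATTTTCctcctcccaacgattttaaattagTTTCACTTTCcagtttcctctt
RSAD2, chr2:6877620-6877653, plus strand: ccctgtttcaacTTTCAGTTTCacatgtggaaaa
IRF1, chr5:132490877-132490909, minus strand: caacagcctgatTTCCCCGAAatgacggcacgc

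In IFIT1 and IFIT3 the window held a pair of matches to the core, read on the other strand as TTTC, 2 bases and TTTC. The RSAD2 stretch belongs to its second annotated start, which lies inside the span of the gene (chromosome 2, 6865885 to 6898239). ISG15 (chromosome 1, 1013497 to 1014540) and MX1 (chromosome 21, 41420558 to 41459214), which gave no call with CG-1521 against vehicle, also held the core upstream, so that these letters did not separate the members that rose from those that did not.

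The arrays gave log2 values, so a difference of 1 is a doubling. On this scale the members were dim to middling: RSAD2 had a higher mean than 19.1% of genes and OAS1 a higher mean than 60.6%. Arrays of a group correlated between 0.995 and 0.996 in SUM149PT and between 0.981 and 0.996 in SUM190PT. The 5 epithelial markers averaged 11.12 to 11.22 in SUM149PT. In SUM190PT they averaged 11.47 to 11.65 in vehicle, 11.64 to 11.76 with estradiol, 11.35 to 11.43 with CG-1521 and 11.36 to 11.53 with the combination, and 2 of the 5 were called lower with CG-1521 against vehicle (median difference -0.32). Their part in the results was not tested. In SUM190PT the 6 measured leukocyte markers averaged 3.84 to 4.06 over the 12 arrays, with 3.87 to 4.05 in vehicle and a highest value of 4.05 with CG-1521, and the 3 plasmacytoid dendritic cell markers averaged 3.72 to 4.07. In SUM190PT the third array of vehicle and that of estradiol differed from the rest: the mean of 8 cell cycle genes was 7.34 and 7.50 there, 8.80 to 9.20 in the other vehicle and estradiol arrays, and 6.51 to 7.53 with CG-1521. Without these 2 arrays no member was called for estradiol against vehicle, the combination against CG-1521 or the interaction in SUM190PT, and the calls between the lines stayed at 1 member higher and 1 lower in vehicle, and at 4 and 5 below 0 for the response difference without and with estradiol. The 2 comparisons with CG-1521 are given without them below.

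**Figure D1:**
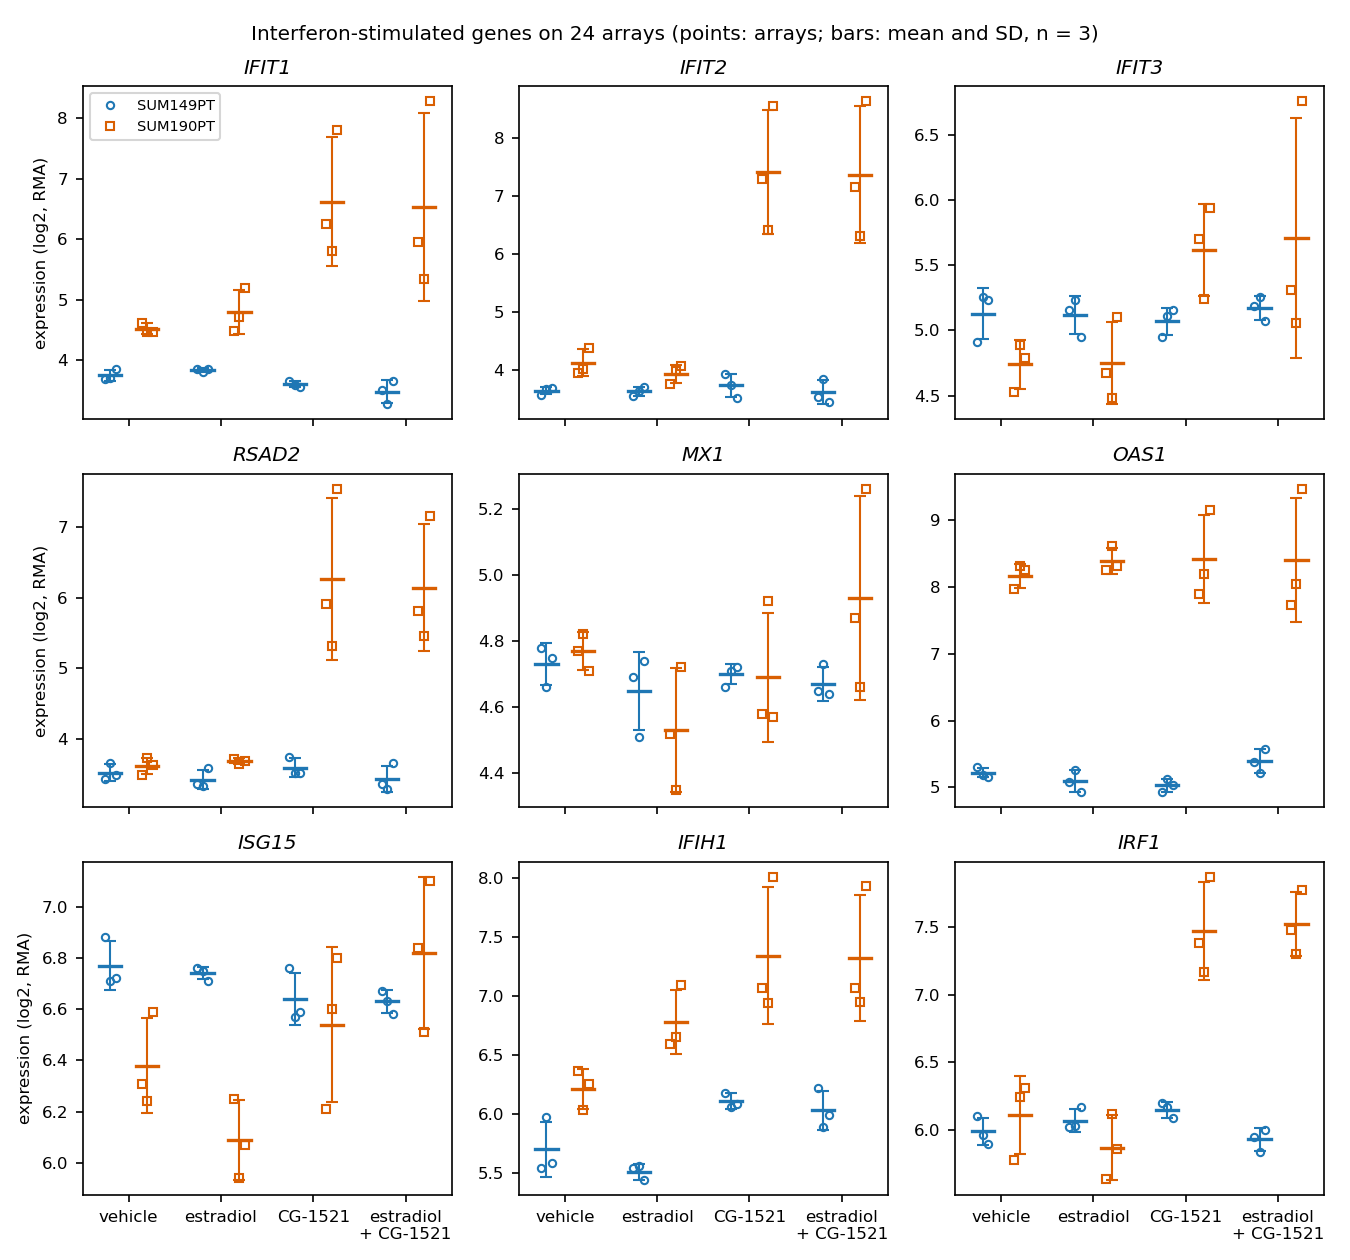
Log2 expression of each of the 9 genes (vertical axes, each with its own scale) in the 4 treatments of SUM149PT (blue circles) and SUM190PT (orange squares). Points are arrays, bars the mean and SD of 3 arrays. In SUM190PT the IFIT2 arrays with CG-1521 lay between 6.30 and 8.63, all above the 3.75 to 4.38 of the arrays without it.

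Whether CG-1521 changed these genes was asked first against vehicle in SUM190PT. IFIT1, IFIT2, RSAD2, IFIH1 and IRF1 rose, by 2.19-fold to 9.82-fold. IFIT3 had all 3 treated arrays above all 3 vehicle arrays and did not pass the test, and MX1, OAS1 and ISG15 overlapped between the groups. No member fell. Genes were called at an adjusted p below 0.05 (limma, Benjamini-Hochberg over 18417 genes).

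The 5 rises among 9 members stood beside 8.32% of all genes that rose and 8.26% that fell in the same comparison. All 3 treated arrays were above all 3 vehicle arrays in 6 of the 9, and in 14.3% of all genes. The median difference of the 9 was 1.13, against -0.05 for all genes. Because the members were chosen with earlier results of these data known, these shares describe them and do not test an excess. Of all called genes 50.2% were higher, and 66.4% when each array was centred on its median, which left the direction of all 5 members as it was.

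IFIT2 had the largest rise. Its log2 level was 3.95, 4.02 and 4.38 on the vehicle arrays of SUM190PT and 7.28, 6.41 and 8.55 on the CG-1521 arrays. The groups were 3.30 apart (SE 0.530), a 9.82-fold rise with adjusted p = 0.00137 in limma. The lowest treated array was more than 2 units above the highest vehicle array.

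RSAD2 was 3.49, 3.72 and 3.63 in vehicle and 5.91, 5.32 and 7.54 with CG-1521. It rose 6.25-fold, by 2.64 (SE 0.480, adjusted p = 0.00274, limma), and its treated arrays spread over a wider range than its vehicle arrays. In vehicle it was the dimmest member in SUM190PT.

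IFIT1 was 4.62, 4.46 and 4.47 in vehicle and 6.25, 5.80 and 7.81 with CG-1521. It rose 4.28-fold, by 2.10 (SE 0.624, adjusted p = 0.0368, limma). All treated arrays were higher, but the third was well above the other 2, and the rise was 1.50 with adjusted p = 0.142 without it. The call was lost in 5 of the 6 omissions of a single array, with adjusted p of 0.0655, 0.101 and 0.0749 without the vehicle arrays of replicates 1, 2 and 3 and 0.0749 without the first CG-1521 array. Leaving out the third vehicle and estradiol arrays gave 2.07 with adjusted p = 0.0681.

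IFIT3, the adaptor of the IFIT1 complex, was 4.53, 4.89 and 4.79 in vehicle and 5.70, 5.24 and 5.94 with CG-1521. The groups did not overlap and were 0.89 apart (95% interval 0.13 to 1.64), with adjusted p = 0.104 in limma. The 3 IFIT genes lie close together on chromosome 10 (IFIT2 from 89302046, IFIT3 from 89327997 and IFIT1 from 89392623).

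IRF1, the transcription factor among the members, was 5.78, 6.24 and 6.31 in vehicle and 7.38, 7.17 and 7.87 with CG-1521. It rose 2.57-fold, by 1.36 (SE 0.203, adjusted p = 0.000833, limma). The groups did not overlap.

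IFIH1, the RNA sensor, was 6.36, 6.03 and 6.25 in vehicle and 7.07, 6.94 and 8.01 with CG-1521. It rose 2.19-fold, by 1.13 (SE 0.288, adjusted p = 0.0183, limma), with no overlap. It was 0.79 higher with adjusted p = 0.0677 without the third CG-1521 array, and 1.04 higher with adjusted p = 0.0734 without the second vehicle array.

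The remaining effectors gave no call. MX1 was 4.77, 4.82 and 4.71 in vehicle and 4.58, 4.92 and 4.57 with CG-1521, a difference of -0.08 with a 95% interval from -0.42 to 0.26. OAS1 was 7.97, 8.31 and 8.25 in vehicle and 7.89, 8.19 and 9.16 with CG-1521, a difference of 0.24 with an interval from -0.60 to 1.08. ISG15 was 6.31, 6.24 and 6.59 in vehicle and 6.21, 6.60 and 6.80 with CG-1521, a difference of 0.16 with an interval from -0.23 to 0.55.

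All of these groups overlapped. The intervals bound the response of MX1 and ISG15 well under the rises of IFIT2 and RSAD2, while that of OAS1 still holds a doubling.

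**Figure D2:**
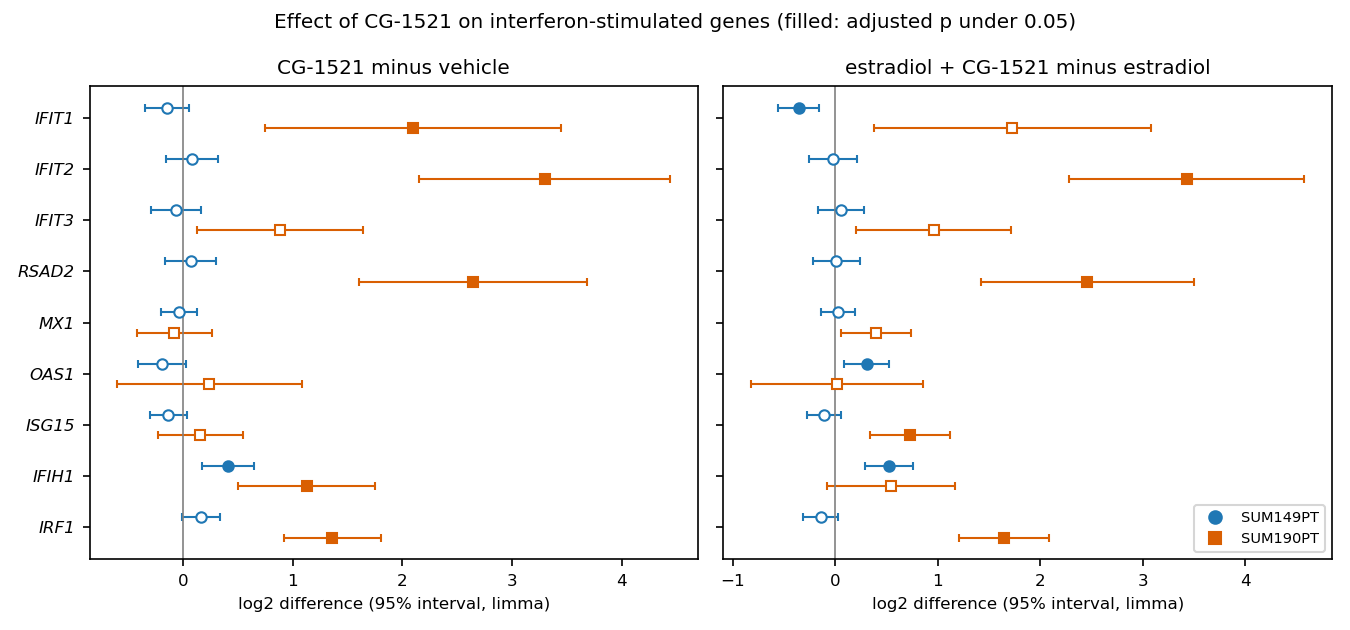
Log2 difference of each gene with CG-1521 against vehicle (left) and with the combination against estradiol (right), with 95% intervals from limma, in SUM149PT (blue circles) and SUM190PT (orange squares). Filled symbols passed at an adjusted p under 0.05. In SUM190PT the points of IFIT2 and RSAD2 lie between 2.46 and 3.43 in both panels, and in SUM149PT every point lies between -0.36 and 0.52.

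With estradiol present in both groups of SUM190PT, CG-1521 raised IFIT2, RSAD2, ISG15 and IRF1, and no member fell. These are 4 of 9, where 12.5% of all genes rose and 13.2% fell. All 3 combination arrays were above all 3 estradiol arrays in 5 of the 9, and in 26.4% of all genes. The median difference of the members was 0.96, against 0.07 over all genes.

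IFIT2 was 3.75, 3.97 and 4.06 with estradiol and 7.15, 6.30 and 8.63 with the combination. It rose 10.8-fold, by 3.43 (SE 0.530, adjusted p = 0.000883, limma). RSAD2 was 3.71, 3.64 and 3.69 with estradiol and 5.81, 5.45 and 7.15 with the combination, a 5.50-fold rise (2.46, SE 0.480, adjusted p = 0.00353, limma). Both genes had treated arrays far above every control array.

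IRF1 was 5.64, 6.12 and 5.86 with estradiol and 7.48, 7.30 and 7.77 with the combination, a 3.13-fold rise (1.64, SE 0.203, adjusted p = 0.000202, limma). ISG15 was 6.25, 5.94 and 6.07 with estradiol and 6.84, 6.51 and 7.10 with the combination, a 1.66-fold rise (0.73, SE 0.179, adjusted p = 0.0115, limma). The ISG15 groups did not overlap, but its adjusted p was 0.0512 without the third combination array and 0.0520 without the second estradiol array.

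IFIT1 was 4.48, 4.72 and 5.20 with estradiol and 5.96, 5.34 and 8.28 with the combination. The groups did not overlap and were 1.73 apart (95% interval 0.38 to 3.08), with adjusted p = 0.0581 in limma. IFIT3 was 4.67, 4.48 and 5.10 with estradiol and 5.31, 5.06 and 6.76 with the combination, 0.96 apart, with adjusted p = 0.0603 in limma.

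The second combination array of IFIT3 fell inside the estradiol range. Without that second combination array, IFIT1, IFIT3 and MX1 also passed, and 7 of the 9 members were called. Over all genes 4237 were then called in either direction, against 4732 with that array.

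MX1 was 4.52, 4.35 and 4.72 with estradiol and 4.87, 4.66 and 5.26 with the combination, 0.40 apart with adjusted p = 0.0784 in limma. OAS1 was 8.25, 8.62 and 8.31 with estradiol and 7.73, 8.04 and 9.47 with the combination, 0.02 apart with an interval from -0.82 to 0.86. IFIH1 was 6.59, 6.65 and 7.09 with estradiol and 7.07, 6.95 and 7.93 with the combination, 0.54 apart with adjusted p = 0.177 in limma. For IFIH1 the estradiol arrays were already higher than the vehicle arrays.

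The spread of the treated SUM190PT arrays followed the replicate number. The array of replicate 3 was the highest of its group for 8 of 9 members with CG-1521 and for 9 of 9 with the combination, and that of replicate 2 the lowest for 6 and 8. Over all genes 28.9% and 33.9% were highest in replicate 3, and the share lowest in replicate 2 is not reported here. The array of replicate 3 lay above the mean of the other 2 by a median of 1.00 and 1.52 over the members, against -0.02 and 0.00 over all genes.

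For OAS1 this made the group: with the combination replicates 1 and 2 were below every estradiol array and replicate 3 was above them all. IFIT1 had the widest gap in the combination group, where the third array was 2.63 above the mean of the others, against 0.60 in estradiol and -0.07 in vehicle. MX1 was the exception with CG-1521 alone, where the third array differed from the mean of the others by -0.18.

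Without the third vehicle and estradiol arrays, whose cell cycle genes were low, 4 members rose against vehicle (IFIT2, RSAD2, IFIH1 and IRF1) and 4 with estradiol present. Over all genes 3217 and 5038 were called in either direction, against 3053 and 4732 with all arrays. Leaving out the third array of all 4 SUM190PT groups, a choice made after these values were seen, gave smaller differences and 6 members that rose in each comparison. Of all genes 2651 and 3797 were then called in either direction. IFIT2 was then 2.86 higher both against vehicle and with estradiol present (adjusted p = 0.000469 and 0.000359, limma). RSAD2 was 2.01 and 1.96 higher, IRF1 1.26 and 1.51 higher, IFIT1 1.48 and 1.05 higher, and IFIT3, which passed in both, 0.75 and 0.61 higher. OAS1 was -0.10 and -0.55 apart, and neither passed.

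**Figure D3:**
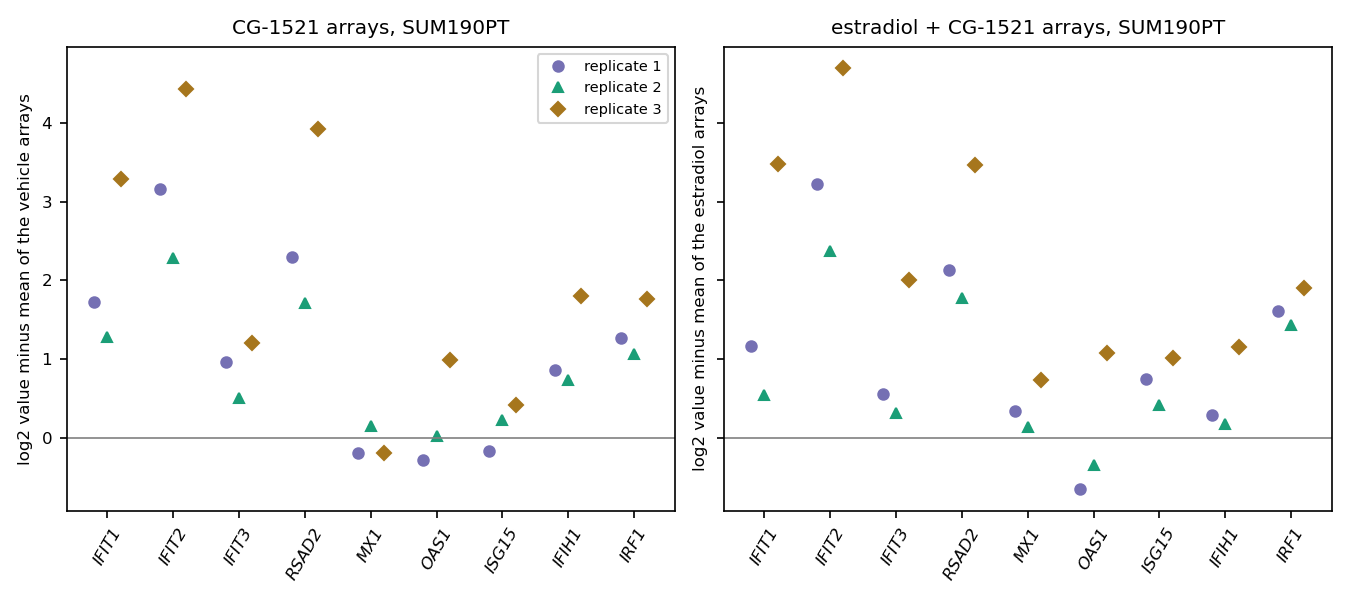
Each SUM190PT array with CG-1521 (left, minus the mean of the 3 vehicle arrays) and with the combination (right, minus the mean of the 3 estradiol arrays), in log2 units, for the 9 genes. Symbols mark the replicate number, and the third (diamonds) is the highest for 8 of 9 genes on the left and for 9 of 9 on the right.

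In SUM149PT, CG-1521 left most of these genes within the spread of the arrays. IFIH1 rose against vehicle, 1.33-fold, and again with estradiol present, 1.44-fold. With estradiol present IFIT1, which was dim in this line, fell 1.28-fold and OAS1 rose 1.24-fold. IFIT2, IFIT3, RSAD2, MX1, ISG15 and IRF1 passed in neither comparison.

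Against vehicle, 1 of 9 members rose and 0 fell, where 14.4% of all genes rose and 19.9% fell. All 3 treated arrays were above the vehicle arrays for 1 member (19.9% of all genes) and below them for 2 (24.7%). With estradiol present 2 members rose and 1 fell, where 16.5% of all genes rose and 20.4% fell. The arrays separated upward for 1 member (22.5% of all genes) and downward for 3 (24.2%). The members' median differences were -0.04 and 0.01, against -0.00 and 0.03 for all genes. With both directions counted together, members were called no more often than genes at large in this line.

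IFIH1 was 5.54, 5.97 and 5.58 in vehicle, 5.54, 5.56 and 5.44 with estradiol, 6.18, 6.06 and 6.08 with CG-1521 and 6.22, 5.89 and 5.99 with the combination. CG-1521 raised it by 0.41 against vehicle (SE 0.111, adjusted p = 0.00805, limma) and by 0.52 with estradiol present (SE 0.111, adjusted p = 0.00142, limma). Its groups with and without CG-1521 did not overlap in either comparison.

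IFIT1 was 3.69, 3.70 and 3.86 in vehicle, 3.85, 3.80 and 3.86 with estradiol, 3.66, 3.59 and 3.56 with CG-1521 and 3.51, 3.27 and 3.65 with the combination. It fell by 0.36 with estradiol present (SE 0.092, adjusted p = 0.00595, limma) and was -0.14 apart from vehicle with CG-1521 alone (adjusted p = 0.267). The combination mean, 3.48, was the lowest of IFIT1 among the 8 groups. All 12 SUM149PT arrays of IFIT1 lay between 3.27 and 3.86, below 4.62, the 25th percentile of gene means. The fall thus lies among dim values.

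OAS1 was 5.08, 5.26 and 4.93 with estradiol and 5.38, 5.22 and 5.58 with the combination. The groups overlapped, and the rise of 0.31 (SE 0.104, adjusted p = 0.0306, limma) lost its call without the first or the third array of either group, with adjusted p of 0.0582 at the least. With CG-1521 alone OAS1 averaged 5.03, against 5.22 in vehicle. All CG-1521 arrays were below all vehicle arrays, -0.19 apart, without a call (adjusted p = 0.189, limma).

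IFIT2 ranged from 3.45 to 3.92 over all 12 SUM149PT arrays, RSAD2 from 3.29 to 3.74, IFIT3 from 4.91 to 5.26, MX1 from 4.51 to 4.78, ISG15 from 6.57 to 6.88 and IRF1 from 5.84 to 6.20. In SUM190PT the same genes covered 3.75 to 8.63, 3.49 to 7.54, 4.48 to 6.76, 4.35 to 5.26, 5.94 to 7.10 and 5.64 to 7.87. Each of these 6 genes thus ranged more widely in SUM190PT.

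The difference between the lines in their response to CG-1521 was tested directly, over all 24 arrays, as the SUM149PT response minus the SUM190PT response. It was below 0 and passed for IFIT2 (-3.21, SE 0.582, adjusted p = 0.000416), RSAD2 (-2.57, SE 0.528, adjusted p = 0.00131), IFIT1 (-2.24, SE 0.679, adjusted p = 0.0217) and IRF1 (-1.20, SE 0.226, adjusted p = 0.000616) in limma. IFIT3 (-0.95, adjusted p = 0.0911) and IFIH1 (-0.71, adjusted p = 0.131) did not pass. Over all genes 9.01% passed above 0 and 11.6% below. Among these calls 43.7% were above 0, and 30% with each array centred on its median.

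With estradiol in all groups, a comparison added after the data were seen, 5 members passed below 0: IFIT1 (-2.09), IFIT2 (-3.46), RSAD2 (-2.45), ISG15 (-0.84) and IRF1 (-1.79). No member passed above 0, where 10.6% of all genes passed above 0 and 9.86% below. The IFIT1 call was lost without the third CG-1521 array of SUM190PT in the first comparison (-1.65, adjusted p = 0.0715) and without the third combination array in the other (-1.21, adjusted p = 0.0742). With estradiol the IFIT1 difference (adjusted p = 0.0314, limma) lost its call in 10 of 20 alternatives. These were only the groups compared (0.0576), trend and robust variances (0.0635), and 8 of 12 omissions of a single array, namely any estradiol array or the first or second combination array of SUM149PT, and the first or second estradiol array or the third combination array of SUM190PT (0.0526 to 0.0742). IFIH1, which rose with CG-1521 in both lines against vehicle, gave no call in either test of the difference.

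Without drug, the largest difference in level between the lines was in OAS1. In vehicle OAS1 was 5.30, 5.19 and 5.16 in SUM149PT and 7.97, 8.31 and 8.25 in SUM190PT, 7.75-fold lower in SUM149PT (-2.95, SE 0.304, adjusted p = 2.26e-08, limma). The lowest SUM190PT array of any treatment, 7.73, was above the highest SUM149PT array, 5.58.

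ISG15 was 6.88, 6.71 and 6.72 in vehicle in SUM149PT, 1.31-fold higher than in SUM190PT (0.39, SE 0.141, adjusted p = 0.0260, limma), and its adjusted p was 0.0988 without the first SUM149PT array. The same call was lost without the first or the second SUM190PT vehicle array, with adjusted p of 0.0729 and 0.110. IFIT1 (-0.77, adjusted p = 0.207), IFIH1 (-0.52, 0.0740), IFIT2 (-0.47, 0.383) and IFIT3 (0.39, 0.266) did not pass in this limma fit over all 24 arrays. For each of them the vehicle arrays of the lines did not overlap, but the share of all genes so separated is not reported here. With only the groups compared these members passed in limma, with adjusted p of 0.000292, 0.0169, 0.0165 and 0.0484. That setting called 7774 of all genes in either direction, against 8592 over all 24 arrays. Of all genes 24.5% were higher in SUM149PT and 22.1% lower, beside 1 member higher and 1 lower.

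The group means of IFIT2 lay at 2 levels over the 8 groups: 7.41 ± 1.07 and 7.36 ± 1.18 (SD, n = 3) for CG-1521 and the combination in SUM190PT, and 3.61 to 4.12 for the other 6, from 4.12 ± 0.23 and 3.93 ± 0.158 for SUM190PT in vehicle and with estradiol down to the SUM149PT groups. RSAD2 had 6.26 ± 1.15 and 6.14 ± 0.898 for the treated SUM190PT groups and 3.42 to 3.68 for the other 6. IRF1 likewise had 7.52 ± 0.237 and 7.47 ± 0.361 at the top and 5.87 to 6.15 elsewhere. In each of these 3 genes, neighbours in the order of means overlapped in their arrays at either level, and only the step between the levels was free of overlap.

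For OAS1 the order went by line, with arrays at 7.73 to 9.47 in SUM190PT and at 4.93 to 5.58 in SUM149PT. IFIH1 was highest in the treated SUM190PT groups (7.34 ± 0.58 and 7.32 ± 0.536), followed by SUM190PT with estradiol (6.78 ± 0.271) and in vehicle (6.21 ± 0.168), then by the SUM149PT groups with CG-1521 (6.11 ± 0.0655) and with the combination (6.03 ± 0.167). MX1 stayed between 4.53 and 4.93 in every group mean.

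Whether estradiol altered these genes was asked with and without CG-1521. No member passed in either line, alone or added to CG-1521. In SUM149PT 0% of genes passed for estradiol against vehicle and 0% for the combination against CG-1521, and in SUM190PT 0.00543% and 0% did. At an unadjusted p under 0.05 in limma, 0 and 2 members were counted in SUM149PT and 0 and 0 in SUM190PT, among 845, 1156, 4531 and 889 genes in all. For estradiol against vehicle in SUM190PT, where the replicate numbers pair the arrays, the replicate block gave 256 genes higher and 263 lower in place of 1, and leaving out the first vehicle array gave 974 and 1287. All 24 arrays in one fit gave 2990 in either direction. No member was among the calls of any of these settings.

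The SUM149PT pair was OAS1, which was 0.37 higher with the combination than with CG-1521 (adjusted p = 0.644), and IRF1, which was -0.22 apart (adjusted p = 0.726). In SUM190PT IFIH1 was 6.36, 6.03 and 6.25 in vehicle and 6.59, 6.65 and 7.09 with estradiol, with no overlap, 0.56 apart (95% interval -0.06 to 1.19, adjusted p = 0.244, limma). The intervals of the IFIT genes and RSAD2 in SUM190PT reached beyond 0.7 in both directions for estradiol alone. They rest on a spread shared with the CG-1521 and combination arrays, which varied more for these genes. Changes of that size could thus be missed by this fit, which is not a limit of the compared arrays themselves. The 6 SUM190PT arrays without CG-1521 spanned 0.23 for RSAD2, 0.62 for IFIT3, 0.63 for IFIT2 and 0.73 for IFIT1.

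The interaction, which asks whether the CG-1521 response differed with estradiol, gave no member in either line. In SUM149PT 0% of genes passed, with 2 members and 1046 genes at an unadjusted p under 0.05 in limma, and in SUM190PT 0.516% passed, with 1 member and 4159 genes. The largest values were -0.59 for IFIH1 and 0.57 for ISG15 in SUM190PT, with adjusted p of 0.418 and 0.205. The SUM190PT calls over all genes depended on the setting: 95 genes passed as deposited and 2540 with all 24 arrays in one fit. Their number was 10 with each array centred on its median and 0 with the replicate block. It was 1655 without the first vehicle array and 0 to 4 without any other single array. These calls also depended on scaling in direction. As deposited 72.6% of the called genes were above 0, and 10% with the centring, which moved the median of all genes from 0.04 to -0.07. No member was called under any of these settings.

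The rest of the pathway was read from 7 lists with 103 measured genes. In SUM190PT with CG-1521 against vehicle, 13 of the 103 rose and 6 fell. In SUM149PT 14 rose and 24 fell. The lists were chosen with earlier results of these data known, and are described by counts and medians, against the 8.32% and 8.26% of all genes in SUM190PT and the 14.4% and 19.9% in SUM149PT given above.

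Of the 16 interferon genes themselves, 0 rose and 0 fell with CG-1521 against vehicle in either line. IFNB1 lay between 2.48 and 3.33 and IFNG between 2.82 and 3.51 over all 24 arrays. Other ligands gave more signal: IFNL1 lay between 4.68 and 5.70, IFNL2 between 4.64 and 5.91 and IFNL3 between 6.99 and 7.95. The median of gene means was 6.13. IFNL2 differed by -0.50 with CG-1521 in SUM190PT without passing (adjusted p = 0.0726, limma). With estradiol present IFNL2 (0.60) and IFNL1 (0.48), type III interferons, rose in SUM190PT, where the estradiol arrays were below the vehicle arrays on average. These were 2 of the 16 ligands, beside 12.5% of all genes that rose. The count of ligands that rose ranged from 0 to 4 over 16 alternatives. RNA at one time point does not show whether interferon was present earlier or in the medium.

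Of the 6 receptor genes, 0 rose and 0 fell in SUM190PT against vehicle. With estradiol present IFNLR1, the type III receptor chain, rose (0.49), and IFNAR2 (-0.91) and IFNAR1 (-0.58), the type I receptor chains, fell. In SUM149PT IFNAR1 rose (0.24) and IFNAR2 fell (-0.36) against vehicle.

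Of the 9 signalling and transcription factor genes, JAK2 fell in SUM190PT (-0.45) and 0 rose. The count that fell went from 1 to 0 in 10 of 16 alternatives, so this call depended on the setting. With estradiol present IRF7 (0.64) and IRF5 (0.51), factors that switch on interferon genes, rose in SUM190PT and JAK2 (-0.82) fell. Both IRF7 and IRF5 also rose in SUM149PT with estradiol present. Against vehicle 2 rose and 2 fell in SUM149PT, among them JAK1 (0.43) and TYK2 (-0.42), which are both kinases of the type I receptor.

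Of the 13 sensors and adaptors, TBK1 (1.12), the kinase that activates IRF3, rose in SUM190PT together with TICAM1 (0.56) and TRIM25 (0.50), and 0 fell. In SUM149PT CGAS (-1.05), the sensor of cytosolic DNA, and TLR3 (-0.73), an endosomal RNA sensor, fell, and IFI16 (0.66) was 1 of 2 that rose.

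Of the 40 other interferon-stimulated genes, 7 rose and 4 fell in SUM190PT, with a median of 0.13. IFI44 (2.43), PARP14 (1.93) and DDX60 (1.62) had the largest changes that passed with separated arrays. In SUM149PT 5 rose and 16 fell, with a median of -0.11. There IFITM1 (-1.43), which blocks virus entry, and LY6E (-1.07) fell, and IFI44 (1.28) rose.

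With estradiol present 12 of the 40 rose and 5 fell in SUM190PT, against 12.5% and 13.2% of all genes, and 6 rose and 14 fell in SUM149PT. OASL (1.36), a relative of OAS1, was among those that rose in SUM190PT, beside IFI44 (1.75) and DDX60 (1.58).

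Of the 6 negative regulators, 0 rose and 0 fell in SUM190PT against vehicle. With estradiol present SOCS1 (0.72) and SOCS3 (0.56), which restrain JAK kinases, rose, and USP18 (-0.71), the enzyme that removes ISG15 from proteins, fell. In SUM149PT SOCS1 rose (0.50) against vehicle, and PTPN2 (-0.55) and PIAS1 (-0.37) fell.

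Of the 13 gamma-interferon and IRF1 targets, 3 rose in SUM190PT, GBP3 (1.78), NLRC5 (0.71) and WARS1 (0.54), and 1 fell. In SUM149PT WARS1 (1.33) and GBP3 (0.90) rose and IFI30 (-0.94) fell. NLRC5 is the activator of MHC class I genes, and GBP3 is a guanylate-binding protein.

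Both lines shared 5 of these 103 genes among those that rose with CG-1521 against vehicle (IFI44, PARP14, ISG20, GBP3 and WARS1), which is 35.7% of the SUM149PT rises and 38.5% of the SUM190PT rises. Over all genes 648 rose in both, 24.4% of the SUM149PT rises and 42.3% of the SUM190PT rises. EIF2AK2, DTX3L and DDX60 fell in SUM149PT and rose in SUM190PT, and none went the opposite way, where over all genes 185 fell in SUM149PT and rose in SUM190PT and 143 did the reverse. EIF2AK2 encodes PKR, the kinase that stops translation on sensing double-stranded RNA. The response difference passed for EIF2AK2 (-1.53), DTX3L (-1.96) and DDX60 (-2.63) in limma.

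**Figure D4:**
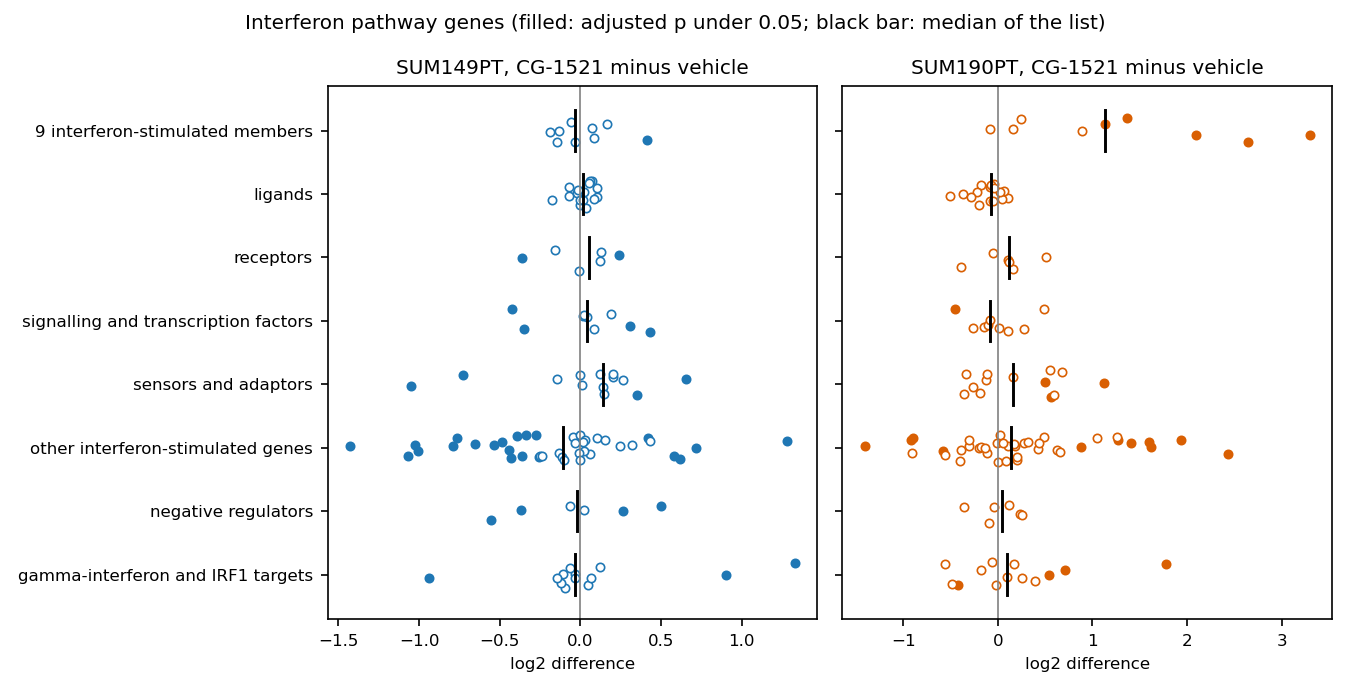
Log2 difference with CG-1521 against vehicle for the 9 genes and for the 7 lists of interferon pathway genes (rows) in SUM149PT (left) and SUM190PT (right). Filled points passed at an adjusted p under 0.05 and black bars are medians. The median of the 9 genes is 1.13 in SUM190PT and -0.04 in SUM149PT, and that of the 16 ligands is -0.07 and 0.02.

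The genes whose pattern was most like 3 of the members were read by Pearson r over the 12 arrays of a line, which share treatments and replicate numbers. In SUM190PT IFIT1 was nearest to DDX60 (0.989), ITGA2 (0.984) and TRIP10 (0.973). IRF1 was nearest to GPRC5A (0.988), KRT80 (0.985) and CDKN2B (0.982), and ISG15 to OVOL1 (0.948), FZD9 (0.935) and CCDC42 (0.928). DDX60 was the one interferon-stimulated gene of the lists among these 9.

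In SUM149PT, where the members varied little, IFIT1 was nearest to VDR (0.926), H2AC17 (0.923) and PTX3 (0.913), ISG15 to LRRC14 (0.938), DEFB116 (0.916) and EGR1 (0.902), and IRF1 to C19orf53 (0.898), NUDT5 (0.843) and NANS (0.830). No gene was named for the same member in both lines.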

How the data were processed

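RNA of both lines was hybridised to 24 arrays. Per the submitters' processing notes the authors used RMA in Affymetrix Expression Console, versions not given in the sources used here, and the deposited values are log2 expression per probe set. Joint or separate normalization of the lines is likewise not given. Of 33297 probe sets 19460 carried a single symbol, which gave 18417 genes by the brightest probe set. No filter was applied. Arrays carry no counts, so their number limits the precision. The p-values rest on a spread within groups that all arrays of a fit share, and that limma moderates across genes. They do not rest on the 3 experiments of the compared groups alone, and the spread was unequal between groups.

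Tests used limma 3.58.1 (lmFit and eBayes, two-sided) under R 4.3.3, over the 12 arrays of a line or, between lines, all 24, with Benjamini-Hochberg adjustment over 18417 genes. The script was tested on simulated data. Members and lists were chosen with earlier results of these data known. The 9 members are always named. Up to 3 genes a list were named in each comparison by the largest change among those past the threshold with separated arrays, or by the smallest p where none passed. ISG20, IFNB1, IFNG and IFNL3 were named outside this rule, after their values were seen. Of 114 listed genes 103 were measured and the others not analysed here. Promoters come from RefSeq GRCh38.p14. Stretches are printed for 4 members, and those of the others are not reported here.

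Replicate numbers were taken to pair arrays where all 3 same-number correlations of deviations from group means exceeded 0.1. This held in SUM190PT for estradiol against vehicle (0.443, 0.229 and 0.729) and the combination against CG-1521 (0.518, 0.434 and 0.502). Alternatives were the replicate block, other sets of arrays, quantile normalization, median centring, another variance model, a filter on dim genes and the mean of probe sets. Python 3.11.15, pandas 2.3.3, numpy 2.4.6 and matplotlib 3.10.9 prepared tables and plots.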

Additional observations from a re-analysis of the deposited data

Results flagged for a closer look

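The response to CG-1521 differed between the lines, by the test of the difference itself (limma, adjusted over all genes), for 4 members without estradiol and 5 with it. As SUM149PT minus SUM190PT the log2 differences without estradiol were -2.24 for IFIT1, -3.21 for IFIT2, -2.57 for RSAD2 and -1.20 for IRF1. With estradiol they were -2.09 for IFIT1, -3.46 for IFIT2, -2.45 for RSAD2, -0.84 for ISG15 and -1.79 for IRF1. Line, dose and medium cannot be told apart in these values.

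Over the 103 measured pathway genes the same test without estradiol passed for 26, with 7 above 0 and 19 below, beside 9.01% and 11.6% of all genes. Up to 3 genes a list are named, and this rule sets the number of the 13 that follow. It was -1.60 for CGAS, -1.0 for TBK1 and 0.68 for IKBKE among the sensors and adaptors. It was -2.63 for DDX60, -1.96 for DTX3L and -1.53 for EIF2AK2 among the other interferon-stimulated genes. GBP3 gave -0.88, NLRC5 -0.74 and WARS1 0.79, PTPN2 -0.67 and PIAS1 -0.63, and IFNGR1 -0.67 and JAK2 0.47.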

How the results depend on the processing

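No member's direction reversed with a call under any alternative run, and no alternative gave a member called for estradiol or for the interaction. In SUM190PT with CG-1521 against vehicle the main 5 members that rose were 2 without the dimmest 50% of genes, which drops IFIT1, IFIT2, IFIT3, RSAD2 and MX1 from the test, 6 with the replicate block, where IFIT3 passed (adjusted p = 0.0306, limma), and 3 to 5 with single arrays left out. With estradiol present the main 4 were 7 with the replicate block, 7 with all 24 arrays in one fit, 2 without the dimmest genes, and 3 to 7 with single arrays left out. In SUM149PT against vehicle the main 1 that rose was 0 with all 24 arrays in one fit, which shares the wider SUM190PT spread. With estradiol present the main 2 that rose were 1 with only the groups compared, 0 with all 24 arrays, 1 with quantile normalization and 1 to 2 with single arrays left out, and the main 1 that fell was 0 with all 24 arrays and 0 without the dimmest genes. Between the lines in vehicle the 1 higher member was 2 with only the groups compared, 2 without the third array of all 4 SUM190PT groups and 0 to 1 with single arrays left out; the 1 lower was 2 with the replicate block, 4 with only the groups compared, 3 without the third array of all 4 SUM190PT groups and 1 to 2 with single arrays left out. The 4 members below 0 in the response difference were 1 without the dimmest genes, 3 to 4 with single arrays left out and 6 with the replicate block, where IFIT3 (0.0279) and IFIH1 (0.0275) passed; with estradiol the 5 were 2, 4 to 7 and 6, while 1 member (OAS1, 0.86) passed above 0 without the third array of all 4 SUM190PT groups, where the main count was 0. Where the cause is not named it was not tested. Calls over all genes in either direction numbered 3053 in SUM190PT against vehicle. They were 2673 without the dimmest genes, 3901 with the replicate block and 1567 to 3082 with single arrays left out. With estradiol present they were 4732, and 5546 with the replicate block, 7050 with all 24 arrays and 3356 without the dimmest genes. Leaving out single arrays gave 2605 to 4513 there. In SUM149PT such calls numbered 6319 against vehicle and 4827 with all 24 arrays. With estradiol present they were 6791, and 6509 with only the groups compared, 5163 with all 24 arrays and 6581 with quantile normalization. Between the lines in vehicle they were 8592, and 7774 with only the groups compared and 8851 with the replicate block. The response difference gave 3801, and 4359 with the replicate block. IFIT1 against vehicle in SUM190PT had adjusted p = 0.0794 with trend and robust variances. The replicate block changed no member call where the numbers pair the arrays. Elsewhere the arrays share only a number. Of the list counts of the pathway, other interferon-stimulated genes ranged from 5 to 11 higher and 3 to 7 lower in SUM190PT against vehicle, and from 3 to 6 and 6 to 16 in SUM149PT.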
